A study of Mus musculus with 2 samples.

Results

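Divergent promoter pairs are places where the start sites of neighbouring protein-coding genes lie close together on opposite strands and the genes are transcribed away from each other. Pairs were taken from GENCODE vM21 on mouse GRCm38, chromosomes 1 to 19, when the transcription start site (TSS) of a minus-strand gene lay upstream of that of a plus-strand gene by at most 1 kb, and the closest TSSs of each gene pair were used. This gave 1066 pairs with 2098 of the 20722 protein-coding genes, or 10.1%. The region of a pair ran from TSS to TSS with 500 bp added on either side, with a median length of 1121 bp. More than 1 pair was found for 34 genes. Some pairs of gene symbols, among them Arl16/Hgs and Hdlbp/Sept2, are counted more than once, and merging overlapping regions left 1038 regions.

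Accessibility was measured by ATAC-seq, in which a transposase inserts adapters into open chromatin, in LβT2 cells, an immortalized mouse gonadotrope line derived from the anterior pituitary. Both samples, at passage 21, received 4 pulses of 2 nM gonadotropin-releasing hormone (GnRH), 1 every 2 h over 6 h and 45 min, and the harvest followed the last pulse by 45 min. The 2 samples are replicates of 1 condition, and an untreated sample was not analysed here, so no value describes an effect of GnRH. The authors' list has 58519 peaks for replicate 1 and 64984 for replicate 2.

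A promoter of this kind can serve both genes from 1 shared stretch of open DNA. Such pairs are common in mammalian genomes and often join genes of general cell upkeep, such as DNA repair, mitochondrial function and protein folding. Most lie in CpG islands, stretches in which the CG dinucleotide has been kept, and many lack a TATA box.

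To show what such a promoter looks like, the bases between the TSSs are given for 5 named pairs that had no annotated exon between the TSSs and a TSS distance from 40 to 300 bp. The first 3 were among the 10 pairs with the highest peaks, the next is a well-known pair, and the last is a CpG-dense pair with no peak in either replicate. All are intergenic and read 5′ to 3′ on the plus strand of GRCm38, so the minus-strand gene leaves to the left and the plus-strand gene to the right. They lie at chr14:18271068-18271135, chr2:11777583-11777875, chr16:43889686-43889799, chr13:14613166-14613239 and chr3:146499754-146499806, in this order. Capitals mark a match to any of the 14 motifs spelled out further on.
Rpl15/Nkiras1: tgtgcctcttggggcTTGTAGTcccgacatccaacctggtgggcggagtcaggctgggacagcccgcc
Fbh1/Ankrd16: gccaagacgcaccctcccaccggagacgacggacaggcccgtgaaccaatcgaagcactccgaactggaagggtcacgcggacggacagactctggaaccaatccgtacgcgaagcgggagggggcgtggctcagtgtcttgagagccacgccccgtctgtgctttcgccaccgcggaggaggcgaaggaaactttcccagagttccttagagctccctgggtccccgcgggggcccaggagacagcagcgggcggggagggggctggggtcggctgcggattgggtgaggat
Qtrt2/Ccdc191: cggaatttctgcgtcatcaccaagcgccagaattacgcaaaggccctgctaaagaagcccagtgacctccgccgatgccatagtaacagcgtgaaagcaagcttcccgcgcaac
Mrpl32/Psma2: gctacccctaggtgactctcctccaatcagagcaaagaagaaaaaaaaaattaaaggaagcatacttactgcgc
Spata1/Gng5: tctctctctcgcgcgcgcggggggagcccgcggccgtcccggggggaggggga
The bases between Rpl15 and Nkiras1 held 1 match to the ZNF143 core ACTACAA, on the minus strand. These letters occurred in the 68 bp before the TSS of 0.951% of all 20722 coding genes. The other 4 sequences held none of the 14 motifs. GC content was 83.0% between Spata1 and Gng5 and 41.9% between Mrpl32 and Psma2, the highest and the lowest of those shown. A match is a description of the letters and does not show that a factor was bound.

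The TSSs of a pair were a median of 120 bp apart, with quartiles of 66.0 and 243 bp and a range from 1 to 987 bp. In 733 pairs, 68.8%, they were at most 200 bp apart. The annotated genes overlapped in 311 pairs, in which at least 1 of the TSSs is not the outermost of its gene. The other 755 pairs had both outermost TSSs facing away from each other. Near the limit of 1 kb, 14 pairs had TSSs 901 to 1000 bp apart, of which 9 had a peak in replicate 1 and 11 in replicate 2, and 12 gene pairs left out had TSSs 1001 to 1100 bp apart, of which 6 and 8 had a peak, beside 61.5% and 80.6% of all pairs.

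A peak overlapped the region by at least 1 bp for 656 of 1066 pairs in replicate 1, or 61.5%, against 28.9% of all coding promoters. In replicate 2 it did so for 859 pairs, or 80.6%, against 40.5% of all coding promoters. The mean was 71.1% ± 13.5 (SD, n = 2). Here the promoter of a gene was the 500 bp on either side of its outermost TSS. In both replicates a peak was present for 646 pairs, or 60.6%, against 27.9% of all coding promoters. The pairs without any peak numbered 197, those with a peak in replicate 2 only numbered 213, and those with a peak in replicate 1 only numbered 10. Nearly every pair with a peak in replicate 1 thus had one in replicate 2 as well.

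How strong a peak is was read from its −log10 q, where q is the peak caller's false discovery rate, and from the sequence tags piled up at its summit. Tags were solved from the authors' fold enrichment, and a peak needed at least 10 tags in replicate 1 and 11 in replicate 2 to be listed. With fewer tags a peak could not be listed, so a pair without one was below detection and is not shown to be closed. The highest peak of a covered pair reached, in the median, 7.74 for replicate 1 and 15.2 for replicate 2 on this −log10 q scale, resting on 20 and 30 tags in the median. All coding promoters with a peak had medians of 7.74 and 12.5, with 20 and 27 tags, so the pairs were level with them in replicate 1 and somewhat higher in replicate 2. All peaks of the lists had lower medians, 3.49 and 4.19, with 14 and 16 tags. A −log10 q of at least 10 was reached by 273 pairs in replicate 1, or 25.6%, against 10.7% of all coding promoters. In replicate 2 it was reached by 607 pairs, or 56.9%, against 25.1% of all coding promoters. All 273 pairs of replicate 1 also reached it in replicate 2.

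Pair regions made up 0.0518% of chromosomes 1 to 19, with bases shared by overlapping regions counted each time. They were overlapped by 689 peaks of replicate 1 and 899 of replicate 2, which is 1.18% and 1.38% of each list. Among the 2000 peaks with the highest −log10 q, the share was 6.10% in replicate 1 and 9.45% in replicate 2. Whether this differs from coding promoters at large was not tested.

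For the 646 pairs with a peak in both lists, the Spearman rho of −log10 q was 0.802. This describes the lists, since the points share the genome, the annotation and base composition and are not independent. The highest peaks of both replicates overlapped in 636 of the 646 pairs, or 98.5%, and their summits were a median of 56.5 bp apart. The value was higher in replicate 2 for 621 pairs, or 96.1%. The median ratio of tags, replicate 2 over replicate 1, was 1.74, while the background of replicate 2, 3.54 tags against 3.05, was 1.16 times that of replicate 1.

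**Figure D1:**
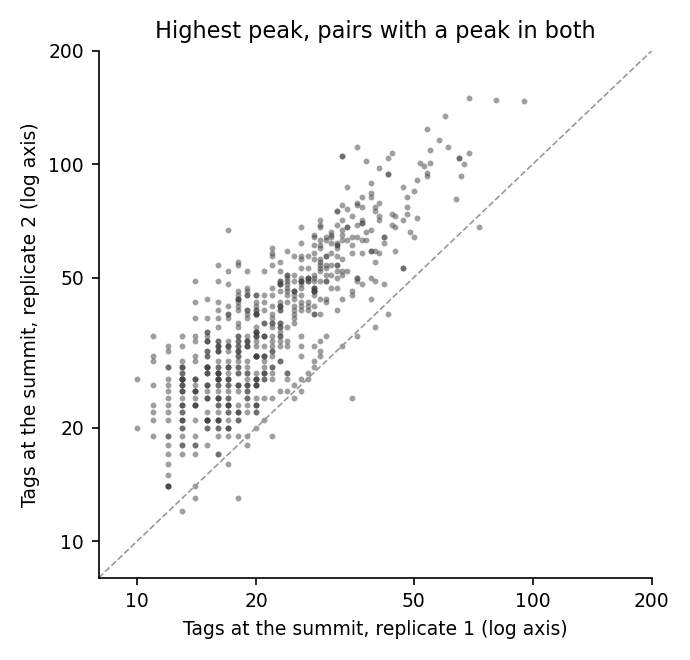
Tags at the summit of the highest peak in replicate 1 (horizontal, log axis) and replicate 2 (vertical, log axis) for the 646 pairs with a peak in both, 1 point a pair, with the line of equal values dashed. Most points lie above the line, and the highest reach 95 tags in replicate 1 and 150 in replicate 2.

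The comparison with promoters that have no divergent partner asked whether pairs differ from coding promoters at large when the same window is used for each gene. Among the 2098 paired genes, 59.1% had a peak within 500 bp of the outermost TSS in replicate 1 and 77.8% in replicate 2. Among the 18624 unpaired genes the shares were 25.5% and 36.3%. Paired genes thus exceeded the others by 33.6 and 41.5 percentage points, on average 37.5 ± 5.57 (SD, n = 2). This difference is several times the spread between replicates, but promoters are not replicates and no test across them was made.

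Base composition differed between these groups too. A promoter, taken here as 250 bp before to 50 bp after the outermost TSS, was called CpG-rich when its GC content was at least 50% and its CpG ratio, observed over expected, at least 0.6. This held for 78.4% of paired and 39.6% of unpaired genes, and the median CpG ratio was 0.828 and 0.493. Among CpG-rich promoters, a peak was present for 63.9% of 1644 paired and 44.9% of 7366 unpaired genes in replicate 1, and for 84.8% and 64.3% in replicate 2. The difference within CpG-rich promoters was 19.1 and 20.5 percentage points, on average 19.8 ± 1.04 (SD, n = 2), which is beyond the spread between replicates and smaller than over all promoters. Among the others it was 28.8 and 34.4 points, since 41.6% of 454 paired and 12.8% of 11258 unpaired genes had a peak in replicate 1, and 52.4% and 18% in replicate 2. The unpaired genes included 1455 olfactory and vomeronasal receptor genes, of which 0.687% had a peak in replicate 1 and 0.550% in replicate 2, and the part of such families in the difference was not tested. Within gene families the difference was not uniform. Unpaired DNA repair genes had a peak in 69.0% and 86.2% of 58, near the 69.7% and 90.9% of their 33 pairs. Unpaired proteasome genes, at 61.3% and 67.7%, stood above their pairs in replicate 1 and below them in replicate 2, at 37.5% and 100%. Unpaired oxidative phosphorylation genes, at 46.4% and 72.5%, stood below their pairs in both, at 81.2% and 93.8%. Pair regions are longer than this window.

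**Figure D2:**
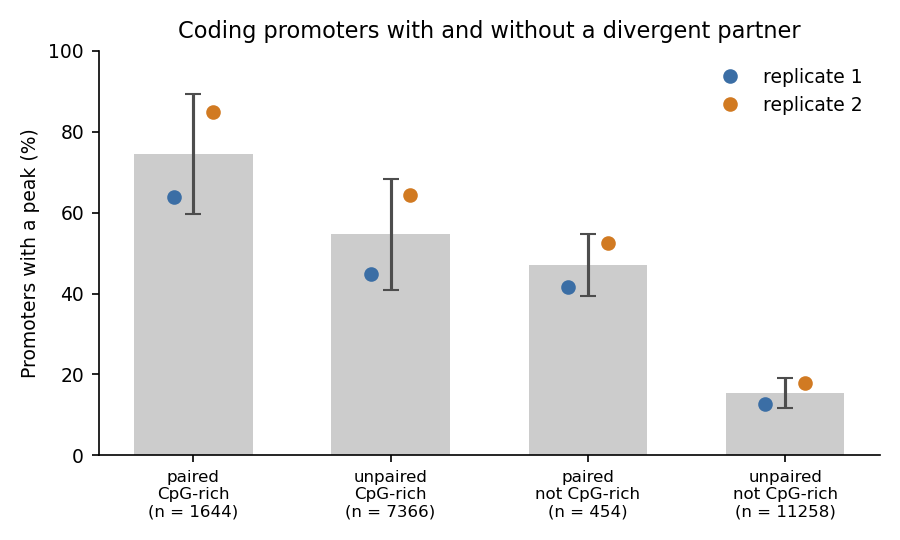
Share of coding promoters with a peak within 500 bp of the outermost TSS (vertical, percent), split by CpG content and by having a divergent partner. Bars are the mean of 2 replicates with the SD as error bar, and points are the replicates. Paired promoters are higher in both classes, at a mean of 74.4% against 54.6% when CpG-rich and 47.0% against 15.4% otherwise.

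Within the pairs, those with the lowest CpG ratio over the whole region stood below the rest. Of the 267 lowest, with ratios from 0.0941 to 0.651, 48.3% had a peak in replicate 1 and 63.3% in replicate 2. Of the next 266, the shares were 71.4% and 85.3%, of the 266 after them 63.9% and 88.7%, and of the 267 highest, with ratios from 0.842 to 1.13, they were 62.5% and 85.0%. So the share was lowest at the lowest ratios in both replicates, and above them its order was not the same in both.

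The distance between the TSSs was divided into 5 classes. The region searched runs from TSS to TSS with 500 bp on either side, so it lengthens with distance by construction. The part of this length in the differences between classes was not tested. Pairs 201 to 400 bp apart had a peak most often, at 75.3% of 198 pairs in replicate 1 and 88.4% in replicate 2. Pairs at most 50 bp apart stood at 53.6% and 80.9% of 183, and pairs 401 to 1000 bp apart at 57.0% and 69.6% of 135. The same class of 201 to 400 bp had the highest peaks, with a median −log10 q of 10.2 and 20, against 5.86 and 12.5 for pairs at most 50 bp apart. The order of the lowest classes was not the same in both replicates.

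A single peak spanned both TSSs in 388 of the covered pairs of replicate 1, or 59.1%, and in 639 of replicate 2, or 74.4%, which averages 66.8% ± 10.8 (SD, n = 2). The highest peak of a pair had a median width of 449 bp in replicate 1 and 613 bp in replicate 2. By distance, the share of spanned pairs went from 73.5% and 83.8% at most 50 bp apart to 57.0% and 75.4% at 201 to 400 bp, and to 22.1% and 30.9% beyond 400 bp. More than 1 peak lay in 7.16% of the covered regions of replicate 1 and 7.10% of those of replicate 2. Most covered regions thus held 1 listed peak, which need not span both TSSs. Beyond 400 bp the shares with more than 1 peak were 13.0% and 16.0%, in regions that are longer by construction.

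**Figure D3:**
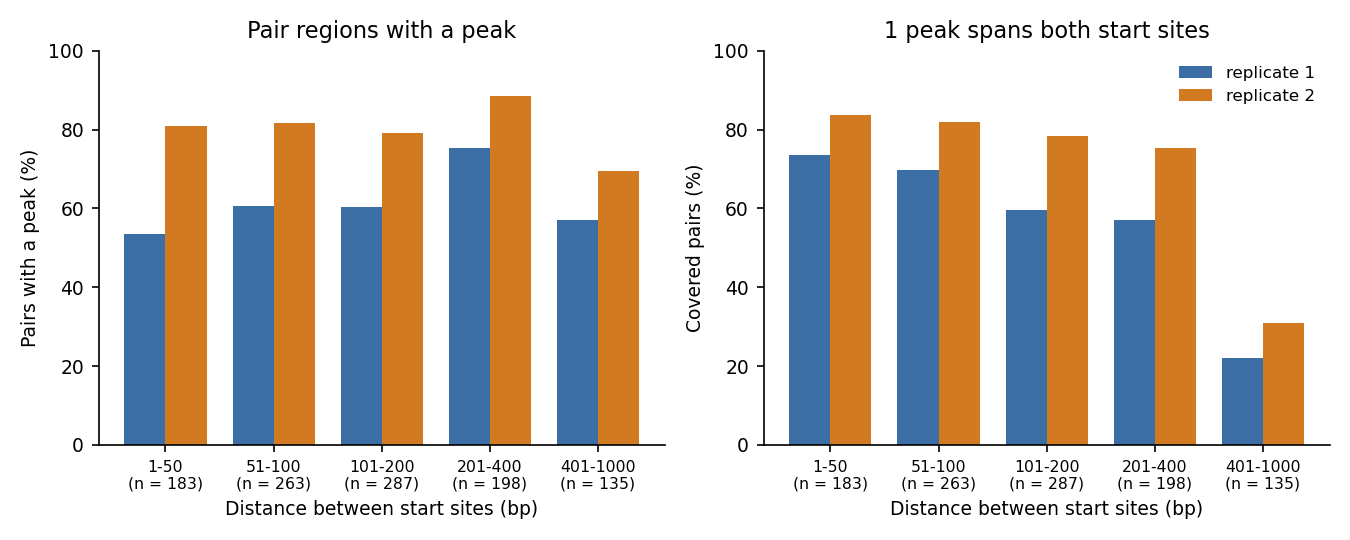
Share of pairs with a peak (left, percent of all pairs of a class) and share of covered pairs in which 1 peak spans both TSSs (right, percent), by the distance between TSSs in bp, for each replicate. The left share is highest at 201 to 400 bp, and the right share falls to 22.1% and 30.9% beyond 400 bp. The region searched lengthens with the distance.

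The 3 most distant pairs spanned by 1 peak in both replicates were Pdcd10/Serpini1, Ttc9c/Hnrnpul2 and Rgs9bp/Ankrd27, with TSSs 691, 677 and 662 bp apart. The peak at Pdcd10/Serpini1 was 962 bp wide in replicate 1 and 1061 bp in replicate 2, with 50 and 85 tags at a summit 51 and 108 bp upstream of the Pdcd10 TSS. Pdcd10 encodes a protein of the cerebral cavernous malformation complex, and Serpini1 encodes neuroserpin. At the other end, the TSSs of Arfrp1/Zgpat, Bag4/Lsm1 and Dcun1d3/Lyrm1 were 1 bp apart. Dcun1d3/Lyrm1 had a −log10 q of 7.74 and 26.1, Arfrp1/Zgpat had 4.80 and 10.8, and Bag4/Lsm1 had a peak in replicate 2 only, at 9.22.

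The summit of the highest peak lay between the TSSs for 40.5% of the covered pairs in replicate 1 and 41.1% in replicate 2, on average 40.8% ± 0.386 (SD, n = 2). It lay on the side of the minus-strand gene in 32% and 30.2%, and on the side of the plus-strand gene in 27.4% and 28.8%. Summits were a median of 94.5 bp and 92.5 bp from the midpoint between the TSSs, and 51.4% and 53.1% lay within 100 bp of it. Their distribution was centred close to the midpoint, with median signed positions of -11 and -8 bp, where negative is the side of the minus-strand gene. For pairs at most 50 bp apart, 6.12% and 11.5% of the summits fell into the short stretch between the TSSs, compared with 69.1% and 67.4% for pairs 201 to 400 bp apart. Pairs with overlapping genes had fewer summits between the TSSs, at 22.7% and 26.8%, than the other pairs at 47.1% and 46.6%.

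**Figure D4:**
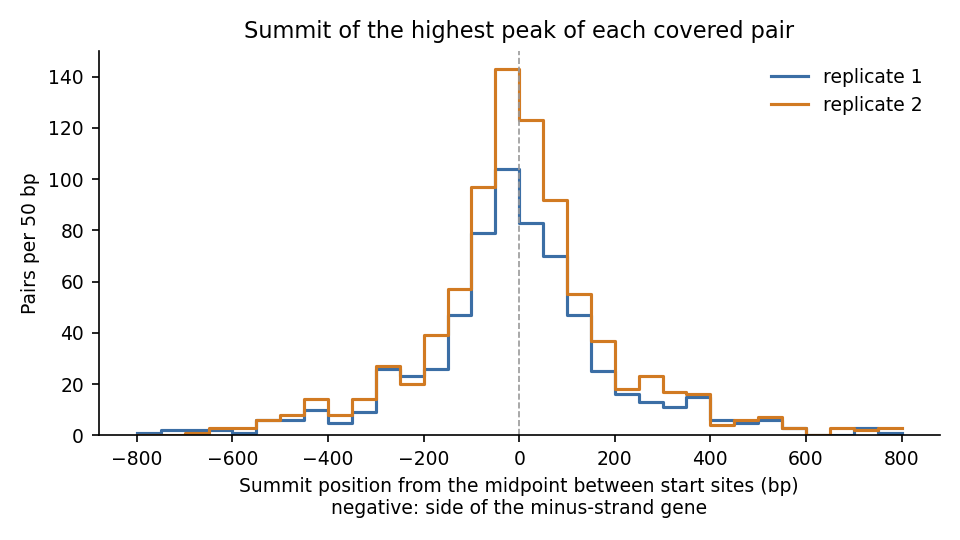
Position of the summit of the highest peak from the midpoint between the TSSs (horizontal, bp, negative on the side of the minus-strand gene) and number of covered pairs in each 50 bp (vertical), for each replicate. The fullest bin, from -50 to 0 bp, holds 104 pairs in replicate 1 and 143 in replicate 2. Beyond 800 bp lay 3 and 10 summits, which are not drawn.

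Pairs were ranked by −log10 q within each replicate, and by the mean of both ranks the 10 highest were led by Aasdhppt/Kbtbd3 and Rpl15/Nkiras1, which tied, and then Nudcd1/Eny2. Rpl15 encodes a protein of the large ribosomal subunit, and its partner Nkiras1 encodes a Ras-like inhibitor of NF-κB signalling. At this pair on chromosome 14, the highest peak had 95 tags and a −log10 q of 101 in replicate 1 and 147 tags and 175 in replicate 2, which averages 138 ± 52.3 (SD, n = 2). It spanned both TSSs, which are 69 bp apart, from 18270835 to 18271499 and, in replicate 2, from 18270340 to 18271871, with summits 28 and 33 bp downstream of the Nkiras1 TSS. No other pair had more tags than this one in replicate 1.

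Aasdhppt encodes the enzyme that attaches phosphopantetheine to carrier proteins, and its pair with Kbtbd3 on chromosome 9 had 81 tags and a −log10 q of 80.1 in replicate 1 and 148 tags and 176 in replicate 2. Nudcd1/Eny2 on chromosome 15 had the most tags of any pair in replicate 2, at 150 with a −log10 q of 179, and 69 with 63.4 in replicate 1. Eny2 is a shared subunit of complexes for histone deubiquitination and mRNA export. In these 3 pairs the peak spanned both TSSs in each replicate.

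Next by mean rank were Rnf5/Agpat1, Cep57/Fam76b, Fbh1/Ankrd16, Qtrt2/Ccdc191, Timm21/Fbxo15 and Hspa14/Cdnf, the last counted also as Gm45902/Cdnf, since the predicted gene Gm45902 starts close to Hspa14 and both face Cdnf. Rnf5, a ubiquitin ligase of the endoplasmic reticulum, and Agpat1, an enzyme of phospholipid synthesis, are 572 bp apart under 1 peak of 1780 and 1792 bp, with a −log10 q of 63.4 and 112. Hspa14, a cytosolic chaperone of the Hsp70 family, shares its region with Cdnf, a neurotrophic factor, with values of 58.0 and 108. Fbh1/Ankrd16, whose bases are given with the sequences, was the only 1 of the 10 not spanned. Its highest peak, 431 and 839 bp wide with a −log10 q of 52.7 and 118, ended before the Ankrd16 TSS in both replicates, and its region held 2 peaks in each. Qtrt2/Ccdc191, also shown there, had 58 and 116 tags, and Qtrt2 is a subunit of the enzyme that puts queuosine into tRNA. The summits of these pairs occurred at 1 place of the genome when 50 bp around them were counted.

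Of 20 pairs known from textbooks, the annotation rule found 13. A peak was present for 10 of them in replicate 1 and 12 in replicate 2, beside 61.5% and 80.6% of all pairs, with a median −log10 q of 9.79 and 24.2. The highest was Mcm4/Prkdc, which joins a subunit of the replicative helicase to the kinase of DNA end joining, with TSSs 489 bp apart. Its peak spanned both with 44 tags and a −log10 q of 31.7 in replicate 1 and 74 tags and 65.8 in replicate 2. Hspd1/Hspe1, the mitochondrial chaperonin and its co-chaperonin, lies on chromosome 1 with TSSs 108 bp apart and had 22 tags and a −log10 q of 9.36 in replicate 1 and 54 tags and 40.7 in replicate 2. The values of this pair differed between replicates by a tag ratio of 2.45, above the median of 1.74 over the 646 pairs with a peak in both.

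Genes of genome maintenance formed several of these pairs. Atm, the kinase that signals DNA breaks, and Npat, a coactivator of histone genes, had a −log10 q of 12.0 and 30.4 under 1 peak that spanned 307 bp. Fen1/Tmem258, with the flap endonuclease of replication and a subunit of the oligosaccharyltransferase, had 3.49 and 10.8. Recql4/Lrrc14 and Tsc2/Nthl1 had a peak in replicate 2 only, at 10.0 and 6.21.

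Mitochondrial and protein synthesis genes made up most of the others. Mrps12/Sars2, a mitochondrial ribosomal protein and the mitochondrial seryl-tRNA synthetase, had a −log10 q of 16.6 and 29.3. Mrpl32/Psma2, with a subunit of the 20S proteasome, had 4.80 and 40.7, which is 16 and 54 tags and the widest gap between replicates among the textbook pairs with a peak in both, at a tag ratio of 3.38. Hars/Hars2, the cytosolic and mitochondrial histidyl-tRNA synthetases, had 3.49 and 19, and Surf1/Surf2 had 5.50 and 9.22. Psmb9/Tap1, which serves antigen presentation, had 10.2 and 18, with the summit 391 and 325 bp downstream of the Psmb9 TSS and an end before the Tap1 TSS in both replicates. The only textbook pair without a peak in either replicate was Col4a4/Col4a3, which encodes chains of the type IV collagen of kidney and other specialised basement membranes.

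Some genes that the study lists as changed by GnRH are in a divergent pair. Of 74 coding genes of the list from bulk RNA on these chromosomes, 4 were paired, or 5.41%, and of 86 of the list from single cells, 5 were paired, or 5.81%, against 10.1% of all coding genes. The lists were used for membership only, no test was made, and 2 of the pairs were on both. Ppp1r15a, a stress-responsive regulator of the phosphatase that acts on the translation factor eIF2α, shares its promoter with Plekha4 on chromosome 7, with TSSs 62 bp apart. The peak there spanned both TSSs, with 16 tags and a −log10 q of 4.80 in replicate 1 and 28 tags and 13.4 in replicate 2. Arl5b, a small GTPase of the Golgi, and Nsun6, an RNA methyltransferase, had 32 tags and 18.6 in replicate 1 and 41 tags and 26.1 in replicate 2. Mob3a/Izumo4 had 10.2 and 15.2, Sept1/Zfp553 and Ptges3l/Rundc1 had a peak in replicate 2 only, at 4.84 and 4.19, and Pecam1/Milr1 had none.

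The markers of pituitary cells were looked up as a check on the cell type. Of 11 markers, 0 were in a divergent pair, against 10.1% of all coding genes, and so few genes cannot show a difference. A promoter peak was present for 3 of the 11 in replicate 1 and 4 in replicate 2. Of all coding promoters, 28.9% and 40.5% had one. Among the gonadotrope markers, Lhb, Cga and Gnrhr had a promoter peak in both replicates and Nr5a1 in replicate 2 only, at a −log10 q of 4.84, while Fshb had none. The markers of the other lineages, Tshb, Prl, Gh and Pomc, had no peak within 500 bp of the outermost TSS in either replicate, nor did the shared factors Pou1f1 and Pitx1.

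Core histone genes gave the most pairs within 1 family. Of 67 genes, 27 were paired, and 13 pairs joined 2 histone genes, 12 of them on chromosome 13 and 1 on chromosome 3. Replication-dependent histone genes stand in clusters of near-identical copies, and most of these pairs joined an H2A gene to an H2B gene. A peak was present for 11 of the 13 in replicate 1 and 12 in replicate 2, beside 61.5% and 80.6% of all pairs, and its −log10 q lay between 2.88 and 7.74 in replicate 1, and between 5.51 and 16.1 in replicate 2. The highest by mean rank was Hist1h2ag/Hist1h2bj, with 7.74 and 16.1. The testis histone pair Hist1h2ba/Hist1h2aa had no peak in either replicate. In each replicate, 10 of the summits had their 50 bp at more than 1 place of the genome, up to 18 places in replicate 1 and 16 in replicate 2, so the tags of a single histone pair are uncertain. Over all covered pairs, only 22 summits of replicate 1 and 18 of replicate 2 were of this kind.

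Several families of cell upkeep stood above the 10.1% of all coding genes that are paired. In a pair were 40.4% of 47 chaperone genes, 36.3% of 91 DNA repair genes, 33.3% of 78 genes of mitochondrial ribosomal proteins and 31.0% of 100 genes of oxidative phosphorylation and its assembly. Solute carriers at 6.70% of 358 genes and zinc finger genes at 6.75% of 385 were below that share, and of 1456 olfactory and vomeronasal receptor genes 1 was paired. These counts come from the annotation and not from the assay.

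Pairs of oxidative phosphorylation genes had a peak in 26 of 32 cases in replicate 1 and 30 in replicate 2, or 81.2% and 93.8%, against 61.5% and 80.6% of all pairs. Tepsin/Ndufaf8, with an assembly factor of complex I, had a −log10 q of 68.9 and 58.0 and, unlike most pairs, fewer tags in replicate 2, at 68 against 73. Of 33 pairs with a DNA repair gene, 23 had a peak in replicate 1 and 30 in replicate 2. Parp2, a poly(ADP-ribose) polymerase paired with Ccnb1ip1, was the highest of them by mean rank, with 28.3 and 99.1, though not in each replicate alone. Rad51c/Tex14 had no peak. Mitochondrial ribosomal protein genes had 14 and 20 of 25 pairs with a peak, which is 56.0% and 80.0% and close to the share of all pairs, with Mrpl50/Zfp189 at 60.7 and 102 as the highest and Zfp661/Mrps5 without a peak.

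Other families are given by their counts, to be read beside the 61.5% and 80.6% of all pairs. Chaperone pairs had a peak in 12 and 14 of 17 cases, proteasome pairs in 3 and 8 of 8, pairs of aminoacyl-tRNA synthetases in 5 and 8 of 8, and pairs of cytosolic ribosomal proteins in 7 and 12 of 13, for replicate 1 and replicate 2. The replicates were farther apart in several of these small families than over all pairs, at 37.5% and 100% for the proteasome, 62.5% and 100% for the synthetases and 53.8% and 92.3% for ribosomal proteins. In the proteasome family, Psmb9/Tap1 was the highest by mean rank, although Mrpl32/Psma2 and Psmb1/Tbp had a higher −log10 q in replicate 2, and Sirt3/Psmd13, with a peak in replicate 2 only at 2.43, was the lowest. Among the lowest of the other 3 families were Nit1/Pfdn2, with a prefoldin subunit, and Rnf151/Rps2, with a small ribosomal subunit protein, both without a peak, and Lyrm4/Fars2, with the mitochondrial phenylalanyl-tRNA synthetase, at 3.57 in replicate 2 only. WD repeat and centrosomal genes had a peak in 36 and 45 of 51 pairs, ubiquitin ligases and proteases in 22 and 28 of 36, or 61.1% and 77.8%, zinc finger genes in 14 and 20 of 23, or 60.9% and 87.0%, and solute carriers in 12 and 20 of 24, led by Slc35a5/Atg3 with 26.1 and 56.7. Wdr83/Wdr83os, Usp37/Plcd4, Zfp661/Mrps5 and Smim19/Slc20a2 were among the lowest of these 4 families, without a peak in either replicate. Of 43 genes with a collagen-like name, 3 were paired, in Col4a4/Col4a3 and in Polk/Col4a3bp, whose Col4a3bp encodes a ceramide transfer protein and not a collagen and which had 6.21 in replicate 2 only. The single receptor pair, Nt5c3/Vmn1r4, had 12.0 and 31.5, with its summit 123 and 110 bp downstream of the receptor's TSS. Genes of the cell cycle list used by the study were in 90 pairs, of which 66 had a peak in replicate 1 and 80 in replicate 2, or 73.3% and 88.9%.

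Pairs with a peak in 1 replicate only had low values in most cases. The 213 pairs of replicate 2 only had a median −log10 q of 6.21, against 20 for replicate 2 in pairs with a peak in both, and the 10 pairs of replicate 1 only had a median of 3.19. The highest of the 213 was Tsacc/Cct3 on chromosome 3, in which Cct3 is a subunit of the cytosolic chaperonin, with 38 tags and a −log10 q of 23.0 in replicate 2 and no peak in replicate 1. Atg13/Harbi1, Cenpx/Lrrc45, Fam228b/Pfn4 and Tkfc/Ddb1 followed, each with 36 tags and a value of 21.0 in replicate 2 only. Atg13 acts in autophagy and Ddb1 in the recognition of ultraviolet damage. At these 5 pairs, replicate 2 had over 3 times the 11 tags that a listed peak needed.

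The 197 pairs without a peak had a median CpG ratio of 0.653 over the region, against 0.762 in pairs with a peak in both, and a median TSS distance of 120 bp against 135 bp. The 5 of them with the highest ratio, named for that reason, Zswim7/Ttc19, Smim19/Slc20a2, Spata1/Gng5, Mcm9/Asf1a and Acot13/Tdp2, had ratios from 0.982 to 1.05. Asf1a encodes a histone chaperone and Gng5 a G protein subunit. None of the 5 had a peak within 500 bp of its TSSs in either replicate. They lie on chromosomes 11, 8, 3, 10 and 13.

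By chromosome, the share of pairs with a peak ran from 29.2% to 88.9% in replicate 1, with a median of 65.3%, and from 55.3% to 92.0% in replicate 2, with a median of 84.0%. Chromosome 8 had a peak in 19 of 65 pairs in replicate 1, or 29.2%, and in 41 in replicate 2, or 63.1%. Chromosome 10 had 14 and 26 of 47 pairs, or 29.8% and 55.3%. By contrast, chromosome 1 had 55 and 58 of 67 pairs, or 82.1% and 86.6%, and chromosome 14 had 33 and 35 of 40, or 82.5% and 87.5%. The replicates differed by at most 5.00 percentage points on chromosomes 1, 14 and 18, and by 40.4 points on chromosome 9, at 43.9% and 84.2% of 57 pairs.

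Tags followed the share of covered pairs only in part. On chromosome 14, the highest peaks of covered pairs rested on 30 tags in the median in replicate 1 and 50 in replicate 2, compared with 16 and 20.5 on chromosome 10. In replicate 1, however, chromosome 8, with the lowest share, and chromosome 16, with a share of 82.9%, had the same median of 19 tags. Promoters without a partner varied by chromosome too, since 70.7% and 80.1% of the unpaired CpG-rich promoters of chromosome 14 had a peak, compared with 22.8% and 48.0% on chromosome 8. Over the 19 chromosomes, the share of pairs and the share of unpaired CpG-rich promoters had a Spearman rho of 0.886 in replicate 1 and 0.761 in replicate 2, as a description of values that share library and depth. On chromosome 13, a peak was present at 61.5% and 82.7% of 52 pairs and at 26.1% and 48.2% of the unpaired CpG-rich promoters, and its pairs include 12 histone pairs, of which 11 had a peak in each replicate. The median CpG ratio of the pair regions was 0.794 on chromosome 8 and 0.787 on chromosome 14. Peak lists do not give the number of copies of a chromosome, which was not analysed here, and the reason for the differences between chromosomes was not tested.

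**Figure D5:**
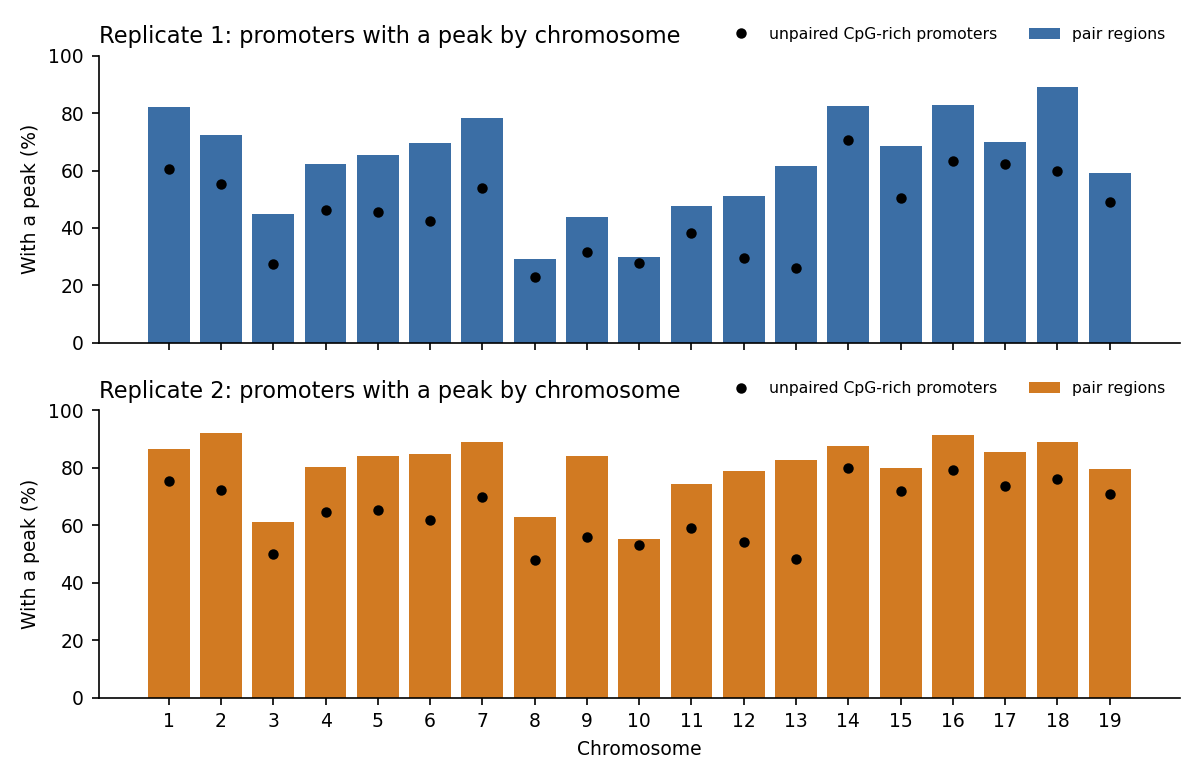
Share of pair regions with a peak (bars, percent) and share of unpaired CpG-rich promoters with a peak (points, percent) on each of 19 chromosomes (horizontal), for replicate 1 (top) and replicate 2 (bottom). Chromosomes 8 and 10 are the lowest in replicate 1, at 29.2% and 29.8%, and chromosome 13 shows bars of 61.5% and 82.7% with points at 26.1% and 48.2%.

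Sequence was compared in the 300 bp promoter of each gene, with 14 motifs counted on both strands by exact match. The motifs were NRF1 GCGCATGC, ETS CCGGAAGT, NFY AGCCAAT, YY1 AAGATGGC, SP1 GGGGCGGGG, CRE TGACGTCA, the Kaiso-type element CTCGCGAG, the TATA box as TATAAA, EGR1 GCGTGGGCG, AP1 TGANTCA, SF1 CAAGGTCA, ZNF143 ACTACAA, E2F TTTGGCGC and the E-box CACGTG, and none of them contains another. Partners whose outermost TSSs face away from each other at most 500 bp apart share part of their windows, so their matches are not independent. The ETS letters were in 12.4% of the 2098 paired promoters against 4.96% of all coding promoters, YY1 in 6.86% against 2.93%, NRF1 in 6.29% against 3.47% and the Kaiso-type element in 2.96% against 1.18%. TATA was the reverse, at 4.72% against 12.7%.

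Part of these differences went with CpG content. Among CpG-rich promoters only, ETS was in 14.5% of paired and 7.86% of unpaired promoters and YY1 in 8.03% and 4.07%, whereas NRF1, at 7.24% and 6.24%, was nearly level and SP1, at 22.8% and 29.1%, was lower in pairs. SP1 was in 19.5% of all paired promoters against 15.1% of all coding promoters, so its direction turned with the promoters compared. The E-box turned as well, at 11.1% of paired and 12.0% of unpaired CpG-rich promoters. The other motifs over all paired and all coding promoters were NFY at 12.5% and 8.94%, E-box at 10.1% and 7.78%, ZNF143 at 5.53% and 3.87%, CRE at 4.39% and 2.45%, AP1 at 3.57% and 6.71%, EGR1 at 1.48% and 0.772%, E2F at 1.24% and 0.700%, and SF1 at 0.763% and 1.47%. The SF1 letters are known as a binding sequence of Nr5a1, a factor of gonadotropes, and were found in 16 paired promoters.

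The NFY letters showed the widest difference in peaks between paired promoters with and without a motif. Of 262 paired promoters with them, 80.9% had a peak in replicate 1 and 92.7% in replicate 2, compared with 56.0% and 75.7% of the 1836 without. For ZNF143 the shares were 70.7% and 91.4% of 116 with the letters, and 58.4% and 77.0% without. For ETS they were 62.3% and 85.4% of 260, and 58.7% and 76.7% without, a smaller difference. The SF1 letters went the other way, at 37.5% and 62.5% of only 16 promoters with them, and 59.3% and 77.9% without. AP1 was nearly level in replicate 1, at 58.7% with and 59.1% without, and lower with the letters in replicate 2, at 66.7% and 78.2%. These groups differed in CpG content: 8 of 16 promoters with SF1 letters, 47 of 75 with AP1 and 239 of 260 with ETS were CpG-rich. Its part in the differences was not tested. Among unpaired CpG-rich promoters, a peak in both replicates was present for 64.8% with the NFY letters and 41.1% without, so the same order held outside the pairs. There, the shares with and without the letters were 64.8% and 43.0% for ZNF143 and 56.0% and 42.6% for ETS. They were 46.5% and 43.6% for AP1 and 33.3% and 43.8% for SF1. Whether the factors were bound was not tested.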

How the data were processed

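The peak list of each replicate was used. The authors' methods describe Bowtie2 mapping of paired-end reads to GRCm38, removal of duplicates, and MACS2 peak calling with the fly genome size option. Which genome size was in effect is not settled here, and the background, −log10 p and q and the lowest tags listed depend on it. Each deposited list gives position and summit of a peak, a score, its fold enrichment as a ratio over background, and −log10 of p and of q. Tags at each summit and 1 background for each list were solved from fold and checked against p. Peaks were matched to regions by an overlap of at least 1 bp. The tools were numba 0.67.0, scipy 1.17.1, pandas 2.3.3, numpy 2.4.6, matplotlib 3.10.9 and Python 3.11.15, with GENCODE vM21, RefSeq and the RefSeq sequence of GRCm38, and the main steps were tested on simulated data.

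Members and lists were chosen with earlier results of these data known. Named were the 10 pairs of highest mean rank, the textbook pairs, pairs with a gene changed by GnRH, the 5 CpG-densest pairs without a peak, the 5 highest with a peak in 1 replicate, the 3 longest spanned and 3 shortest pairs, and the highest and lowest pair of each family. With 1 condition and 2 replicates, each replicate has its own value, beside mean ± SD, and no test was made. Alternatives concerned the q threshold, the summit rule, the flank, the TSSs, the TSS distance, the annotation, the unpaired window, single-copy summits and either replicate. Read coverage and expression were not analysed here. The values of 3 named pairs are not reported here.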

Additional observations from a re-analysis of the deposited data

How the results depend on the processing

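Of 45 values computed under other settings, 12 moved by more than 1 SD between replicates or, for a peak in both replicates, beyond a Wilson interval that covers counting error over pairs only. The other 33 include the number of pairs, which has no such spread and was 755 with 1 TSS for each gene, 966 at 500 bp and 1169 with RefSeq, against 1066. The excess of paired over unpaired promoters stayed positive under each setting. With a −log10 q of at least 10, pair regions with a peak fell to a mean of 41.3%, those with a peak in both replicates to 25.6%, and the excess of paired over unpaired promoters to 24.7 percentage points, while 1 peak spanned both TSSs in 79.0% of covered pairs, the median −log10 q was 19.3 and 49.6% of summits lay between the TSSs. The setting by construction leaves fewer and stronger peaks, and the cause of the higher shares of spanned pairs and of summits between the TSSs was not tested. The share of summits between the TSSs has an SD of only 0.386, and it also moved to 41.8% with the summit in the region, 41.8% with a flank of 250 bp, 46.8% with 1 TSS for each gene, 38.7% with TSSs at most 500 bp apart, 35.3% with RefSeq and 41.4% with single-copy summits, and the cause was not tested.

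Leaving out either replicate gave 61.5% to 80.6% of pairs with a peak, 59.1% to 74.4% spanned, a median −log10 q of 7.74 to 15.2, 40.5% to 41.1% of summits between the TSSs and an excess of 33.6 to 41.5 percentage points. The values rest on 2 replicates and no control, and a peak near the threshold rests on 10 or 11 tags. The lists of the replicates differ in background, at 3.05 and 3.54 tags, and read depth was not measured. A missing peak therefore does not show closed chromatin.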
